A study of Homo sapiens with 8 samples.

Results

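Of 129052 regions of open chromatin listed in U2OS cells, 6268 were listed under both siRNAs without H2O2 and in neither list made after H2O2, which is 6.6% of the 94998 regions listed under both siRNAs without H2O2. They were found by joining overlapping or touching peaks of 4 deposited peak lists on chromosomes 1 to 22 and X, and by keeping the joined regions that held a peak in both untreated lists and no peak in either H2O2 list. They are called lost regions here, which means that no peak was listed after H2O2. The signal left at them after H2O2 is not in the lists, so a region without a listed peak may still have been open. Since the lists themselves chose the regions, their absence after H2O2 is a description and carries no test.

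The lists come from ATAC-seq, which tags open DNA with a transposase, in U2OS, an established human osteosarcoma cell line. Cells received an siRNA against Orc6 or the control siRNA siGl3 for 72 h, went through a double thymidine block with 3 h of release, and were collected after 30 min in 5 mM H2O2 or without it. The groups are therefore siOrc6 with H2O2, siGl3 with H2O2, siOrc6 untreated and siGl3 untreated, with 2 libraries each, and each group has 1 peak list that joins its 2 libraries. The spread between libraries could not be measured, the labels do not say whether they came from separate cultures, and the read depth behind each list is unknown. The lists hold no measure of Orc6 itself.

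Open chromatin is found at promoters, many of which are rich in CpG dinucleotides and stay open in most cell types, and at distal elements such as enhancers, which are often CpG-poor and bound by cell-type or signal-dependent factors such as AP-1 (FOS and JUN proteins), TEAD and RUNX proteins. Orc6 belongs to the origin recognition complex, which loads the replicative helicase at origins and, in human cells, also has roles outside origin licensing. H2O2 oxidises DNA bases and other cell components, and cells answer with base excision repair, the antioxidant factor NRF2, stress kinases and p53.

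The promoters inside lost regions show what kind of sequence they hold. RefSeq (GRCh38.p14) promoters of 300 bases, 250 before and 50 after a start, were used, and 82 of 34961 had a base in a lost region, 17 of them wholly. Of these, 5 are printed from 5′ to 3′ on the gene's strand, then 1 promoter from a region that was listed after H2O2 under both siRNAs and in neither untreated list, for contrast. Capitals mark matches, on either strand, to AP-1 (TGANTCA), TEAD (CATTCC), RUNX (TGTGGT), ETS (CCGGAAG) and SP/KLF (GGGCGG) motifs. SORBS2 (a cytoskeletal adaptor, chr4:185933079-185933378, minus strand) has the highest lower percentile of its 2 untreated signals among lost regions at coding gene starts apart from FAM83E, and holds 2 AP-1 matches and a RUNX match. MRTFB (a serum response factor cofactor, chr16:14186436-14186735, plus strand) holds AP-1, TEAD and RUNX matches, and CALD1 (the actin-binding caldesmon, chr7:134711249-134711548, plus strand) holds AP-1 and RUNX matches; both were chosen after their values were seen. FAM83E (chr19:48615027-48615326, minus strand) holds an ETS and an SP/KLF match. IFI44L (an interferon-induced gene, chr1:78620198-78620497, plus strand) has no CpG and no match to any motif searched. FNDC4 (a secreted protein gene, chr2:27495151-27495450, minus strand), the contrast, lies wholly in the gained region of the highest percentile that covers a coding gene's promoter (signals after H2O2 of 2136 in siOrc6 and 1750 in siGl3), and holds 3 SP/KLF matches and 1 TEAD match.
SORBS2: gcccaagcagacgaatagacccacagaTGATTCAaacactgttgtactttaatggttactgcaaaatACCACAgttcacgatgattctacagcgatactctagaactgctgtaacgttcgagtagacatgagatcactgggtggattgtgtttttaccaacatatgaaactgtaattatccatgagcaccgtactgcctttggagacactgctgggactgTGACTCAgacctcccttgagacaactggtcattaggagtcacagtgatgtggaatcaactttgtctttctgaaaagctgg
MRTFB: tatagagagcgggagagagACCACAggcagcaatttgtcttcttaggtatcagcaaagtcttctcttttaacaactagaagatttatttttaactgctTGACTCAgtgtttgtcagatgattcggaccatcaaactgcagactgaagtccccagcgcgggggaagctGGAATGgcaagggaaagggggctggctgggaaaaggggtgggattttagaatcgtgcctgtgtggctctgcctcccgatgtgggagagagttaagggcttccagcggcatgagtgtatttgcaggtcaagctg
CALD1: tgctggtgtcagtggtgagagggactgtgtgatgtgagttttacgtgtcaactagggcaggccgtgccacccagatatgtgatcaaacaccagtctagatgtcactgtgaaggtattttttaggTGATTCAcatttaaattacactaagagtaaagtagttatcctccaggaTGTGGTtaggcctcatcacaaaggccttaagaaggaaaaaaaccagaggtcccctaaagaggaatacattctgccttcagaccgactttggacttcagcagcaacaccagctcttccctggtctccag
FAM83E: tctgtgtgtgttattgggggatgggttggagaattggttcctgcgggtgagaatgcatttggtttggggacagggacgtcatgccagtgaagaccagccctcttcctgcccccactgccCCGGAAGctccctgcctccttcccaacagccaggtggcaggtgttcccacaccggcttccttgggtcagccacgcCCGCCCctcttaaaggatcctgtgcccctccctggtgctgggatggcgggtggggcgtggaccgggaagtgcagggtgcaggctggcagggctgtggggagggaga
IFI44L: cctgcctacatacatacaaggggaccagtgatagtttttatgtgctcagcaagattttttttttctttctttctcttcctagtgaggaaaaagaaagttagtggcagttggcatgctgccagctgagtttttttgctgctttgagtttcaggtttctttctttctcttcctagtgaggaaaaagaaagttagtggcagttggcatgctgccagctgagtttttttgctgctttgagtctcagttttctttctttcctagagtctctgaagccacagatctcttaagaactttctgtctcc
FNDC4: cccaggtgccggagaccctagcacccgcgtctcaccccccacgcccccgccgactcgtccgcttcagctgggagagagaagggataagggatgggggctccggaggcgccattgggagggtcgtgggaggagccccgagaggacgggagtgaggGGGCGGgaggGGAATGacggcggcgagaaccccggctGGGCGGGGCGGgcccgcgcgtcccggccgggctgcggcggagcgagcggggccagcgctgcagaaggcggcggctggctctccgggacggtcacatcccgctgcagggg

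Promoters in lost regions were AT-richer and CpG-poorer than promoters in gained or kept regions, with a larger share holding AP-1 and TEAD matches and a smaller share holding SP/KLF matches. Promoters in regions lost under 1 siRNA alone were close to them in composition. Of promoters with at least 150 bases in a region of the kind named, 65 lay in lost regions, 171 in regions gained with H2O2 under both siRNAs and 16730 in regions kept in all 4 lists. Median GC content was 46.0% at lost promoters, 72.0% at gained ones and 65.7% at kept ones, and 58.7% over all 34961 promoters. The observed over expected CpG ratio had medians of 0.255 at lost, 0.801 at gained and 0.826 at kept promoters, against 0.580 over all promoters. Lost promoters were thus close in composition to the 16497 promoters with no region, whose medians were 48.7% GC and a CpG ratio of 0.257. They were also close to the 47 promoters in regions lost in siOrc6 only (47.7% GC and a ratio of 0.195) and the 79 in regions lost in siGl3 only (48.7% and 0.301). Of the lost promoters, 27 (41.5%) belonged to long non-coding RNA genes, against 18.7% of gained, 21.0% of kept, 36.7% of all and 52.5% of promoters with no region. Among promoters with a CpG ratio under 0.5 the long non-coding share was 43.5% of lost and 41.3% of kept ones.

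An AP-1 match was present in 20 of 65 lost promoters (30.8%, Wilson 95% interval 20.9 to 42.8), against 8.19% of gained, 6.62% of kept and 7.68% of all promoters. Of the 17 promoters wholly inside lost regions 2 held one (11.8%), with the rest of the 20 in promoters partly inside. Promoters in regions lost in siOrc6 only held an AP-1 match in 40.4% of cases, and those in regions lost in siGl3 only in 12.7%. TEAD matches were in 20 lost promoters as well (30.8%), against 8.19% of gained, 11.6% of kept, 14.0% of all, 14.9% of those lost in siOrc6 only and 24.1% of those lost in siGl3 only. SP/KLF matches ran the other way, in 9.23% of lost promoters against 78.9% of gained, 69.0% of kept and 45.0% of all. The AP-1 and SP/KLF gaps to gained and kept promoters, and the TEAD gap to kept ones, were smaller between CpG-poor promoters, those with a ratio under 0.5. These still differed in GC content, with medians of 45.5% at lost, 60.3% at gained and 53.7% at kept ones, so composition was matched only in part. Among promoters with a CpG ratio under 0.5, an AP-1 match was in 32.3% of 62 lost (interval 22.0 to 44.6), 28.2% of 39 gained, 24.0% of 2395 kept and 10.0% of 12711 promoters with no region. The interval for lost promoters includes the share of kept ones. In that CpG-poor class AP-1 matches were thus more frequent in open promoters of all 3 kinds than in those with no region. TEAD matches there were in 30.6% of lost, 7.69% of gained, 22.8% of kept and 18.3% of promoters with no region, and SP/KLF matches in 4.84% of lost, 38.5% of gained and 24.7% of kept ones.

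RUNX (21.5% of lost, 9.96% of kept and 13.1% of all promoters) and GATA matches (AGATAA, 16.9% of lost, 4.60% of kept and 10.3% of all) were also in a larger share of lost promoters, and ETS matches in a smaller one (1.54% of lost, 17.6% of kept and 10.3% of all). The intervals for lost promoters, 13.3 to 33.0 for RUNX and 9.72 to 27.8 for GATA, reach close to the share of all promoters or include it. Among CpG-poor promoters RUNX matches were in 22.6% of lost and 21.4% of kept ones, GATA matches in 17.7% of lost and 18.7% with no region, and ETS matches in 1.61% of lost and 1.73% with no region. The antioxidant response element core bound by NRF2 (TGACNNNGC) was in 21.5% of lost, 15.2% of kept and 13.4% of all promoters. Its interval for lost promoters, 13.3 to 33.0, includes the shares of kept and of all promoters. Among CpG-poor promoters this core was in 21.0% of lost, 33.3% of gained and 15.4% of kept ones. In 3 lost promoters it overlapped an AP-1 match. E-box (CACGTG), CEBP (TTGCNNCAA) and cyclic AMP response element (TGACGTCA) matches were each in 1 lost promoter (1.54%), against 7.27%, 1.99% and 1.85% of all promoters in that order. The CTCF and NRF1 motifs were in none of the 65, and in 0.226% and 1.24% of all. Each motif was searched on both strands, and a match is a run of letters, not a bound site. Promoters on chromosome 8 were not analysed here.

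The lost regions were weak and narrow. How the authors scaled signal between lists is unknown, so strength is compared between lists by percentile. The median of their peak signal, a value the authors' caller gave to each peak, was at the 16.3 percentile of the untreated siOrc6 list and the 16.3 percentile of the untreated siGl3 list, against 62.7 and 64.5 for regions kept in all 4 lists. Signal in lost regions had a median of 321 and ran up to 3252 in the siOrc6 list, and had a median of 313 and ran up to 2867 in the siGl3 list, and the lowest peak listed had 200.001 in siOrc6 and 200.003 in siGl3. Merged lost regions had a median width of 292 bp, against 296 bp for gained and 708 bp for kept regions. Kept regions join peaks of 4 lists, but single untreated peaks differed too. Medians were 255 bp at lost and 607 bp at kept regions in the siOrc6 list. In the siGl3 list they were 261 bp and 585 bp. At like signal the gap was small, and weak kept peaks were nearly as narrow. In the weakest quintile by the lower untreated percentile, siOrc6 medians were 242 bp at lost and 249 bp at kept regions. The siGl3 medians there were 249 bp at lost and 272 bp at kept regions. The 3 lost regions whose stronger peak was weakest had signals of 202 and 204, 204 and 203, and 202 and 205 in siOrc6 and siGl3. Just outside the rule, 3 regions were left out by 1 H2O2 peak of signal 200.006, 200.015 or 200.032.

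Loss was nearly confined to weak peaks. Over all 94998 regions with both untreated peaks, 6.6% were lost. Ranked by the lower of their 2 untreated percentiles and cut into quintiles, 27.1% of the weakest quintile was lost (Wilson 95% interval 26.5 to 27.7), then 5.49%, 0.395%, 0.0105% and 0.00526%. In the lowest 5 percentiles 39.1% was lost, and above the 50th percentile 12 regions were. Regions gained under both siRNAs followed the same shape at a lower level, with 13.9% of the weakest 5 percentiles and 2.16% of all 86215 regions with both H2O2 peaks. The H2O2 lists were shorter, with 97816 peaks in siOrc6 and 103674 in siGl3, against 109304 and 115292 in the untreated lists. With each list cut to the length of the shortest, strongest peaks first, 2947 regions were lost, under the 6268 of the full lists by more than 1.5 times.

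**Figure D1:**
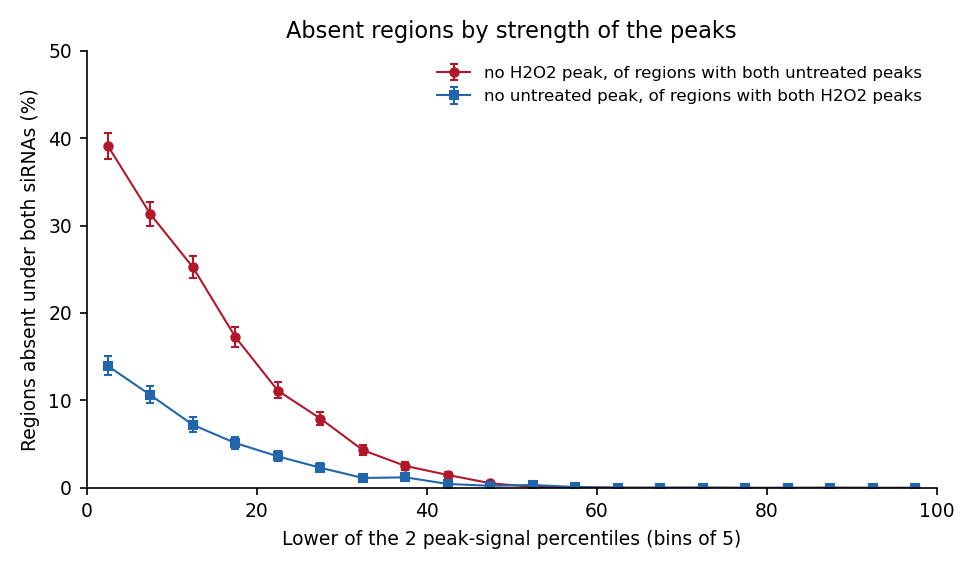
Share of regions absent under both siRNAs (y axis, %) by the lower of their 2 peak-signal percentiles in the lists that hold them (x axis, bins of 5): lost regions (red circles) among those with both untreated peaks, and gained regions (blue squares) among those with both H2O2 peaks. Bars are Wilson 95% intervals; lost regions start at 39.1% and gained at 13.9%, and both reach nearly 0 above the 50th percentile.

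By the rule the untreated siOrc6 and siGl3 peaks of a lost region join in 1 mostly narrow region, so their summits are bound to lie near. In lost regions the summits lay a median of 15 bp apart, with 79.2% within 50 bp. In kept regions of the weakest quintile these were 15 bp and 76.9%. Against all kept regions, the strength of lost regions was less alike between the lists. The percentiles under the siRNAs had a Spearman correlation of 0.29 over 6268 lost regions, against 0.92 over kept regions. This is a description across regions of 2 lists whose range the rule narrows. In kept regions of the weakest quintile, the siOrc6 minus siGl3 percentile ran from -39.7 to 28.2 between its 5th and 95th percentiles. In lost regions of all quintiles it ran from -24.6 to 23.4. Those kept regions were chosen by a weak lower percentile and may be strong in the other list, while lost regions were seldom strong in either. The groups were thus chosen differently, and no likeness is read from these spreads. The percentile was higher in siOrc6 than in siGl3 at 50.1% of lost and 44.7% of kept regions.

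**Figure D2:**
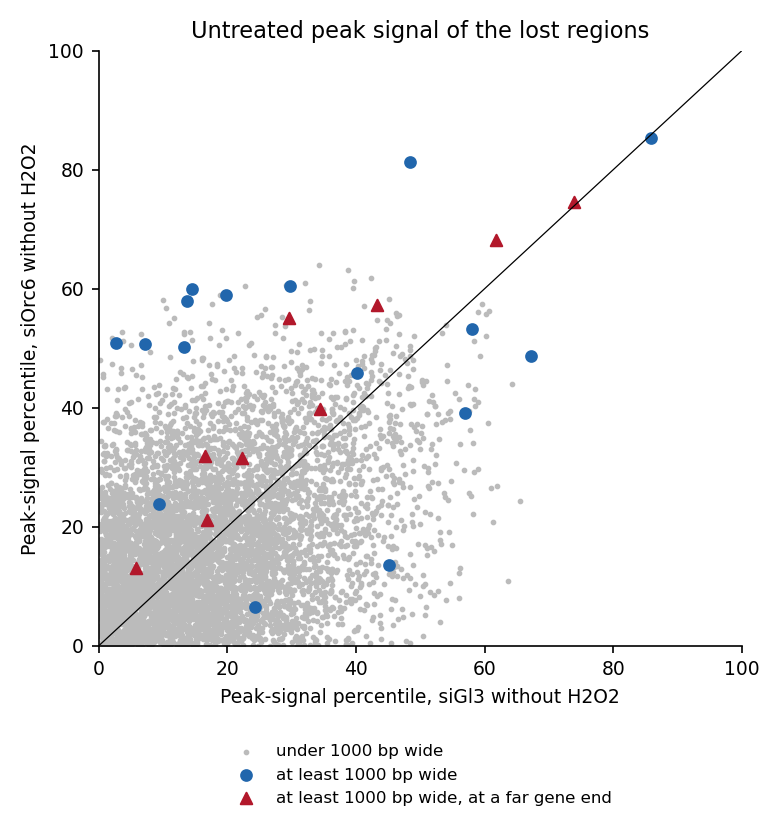
Peak-signal percentile of each of the 6268 lost regions in the untreated siOrc6 list (y axis) and the untreated siGl3 list (x axis), with the line of equal percentiles. Grey points are regions under 1000 bp wide, blue circles the 16 wider ones away from far gene ends and red triangles the 9 wider ones within 1 kb of a far gene end; most points lie below the 30th percentile on both axes, and 19 of the 25 wide regions lie above the line.

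A few lost regions were strong. The strongest, chr17:27081467-27084090, was also the widest at 2624 bp, with a signal of 3252 in siOrc6 (85.3 percentile) and 2867 in siGl3 (85.9 percentile), and the nearest coding gene, WSB1, lay 210 kb away. An H2O2 peak was listed 2962 bp from it. The next was at the far end of PDLIM7, which encodes a cytoskeletal PDZ and LIM domain protein, at chr5:177483422-177485674, with signals of 2024 in siOrc6 and 1728 in siGl3. Its nearest H2O2 peak was 688 bp away, and 2 kept regions lay at the ends of PDLIM7. The third, chr19:48613928-48615369, with 1590 in siOrc6 and 1138 in siGl3, spans the start of FAM83E and the far end of RPL18, a ribosomal protein gene. Its nearest H2O2 peak was 3357 bp away. In each of these 3 regions both untreated peaks stood in the upper 40% of their lists.

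The next 5 by the lower of the 2 percentiles were 515 to 592 bp wide, with signals of 893 to 1108 across both lists; regions strong in 1 list only rank lower by this measure. The SORBS2 start region (chr4:185933002-185933560) had 1108 in siOrc6 and 1066 in siGl3, and its nearest H2O2 peak was 17857 bp away. Intronic or exonic position was not assigned for the regions inside SLIT3, an axon guidance ligand gene (chr5:168977965-168978479, 1064 in siOrc6 and 1101 in siGl3), and ZHX3, a zinc finger and homeobox gene (chr20:41308273-41308789, 1058 and 1043). The region chr14:55847673-55848264 lay 163 kb from KTN1 and had 1049 in siOrc6 and 1082 in siGl3, and chr18:5703633-5704222 lay 73.0 kb from EPB41L3 with 987 in siOrc6 and 893 in siGl3. By percentile all 5 stood slightly lower in siOrc6, from 57.5 in siOrc6 against 59.7 in siGl3 at SORBS2 to 53.91 against 53.98 at the chromosome 18 region.

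Lost regions lay away from gene starts more than kept regions did. Starts were known for 15812 of 19974 coding genes, none of them on chromosome 8. Regions on that chromosome were left out here. Within 1 kb of a known start lay 2.35% of lost regions (139 of 5916, interval 1.99 to 2.77), against 13.0% of gained and 14.9% of kept regions. Regions at starts of the other coding genes are not counted, so these shares may run low. Within the weakest quintile the shares were 2.45% of lost and 5.66% of kept regions (intervals 2.05 to 2.93 and 5.17 to 6.19), so part of the gap was shared by weak regions that were kept. Far gene ends, the ends away from the start, were taken for the same genes and held 1.61% of lost, 3.51% of gained and 3.02% of kept regions. With both ends counted on all chromosomes, 3.99% of lost regions and 17.5% of kept ones lay within 1 kb. Weighted to the widths of the lost regions, the kept share was 4.50%, close to that of lost regions; weighted to their signal it was 8.38%.

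**Figure D3:**
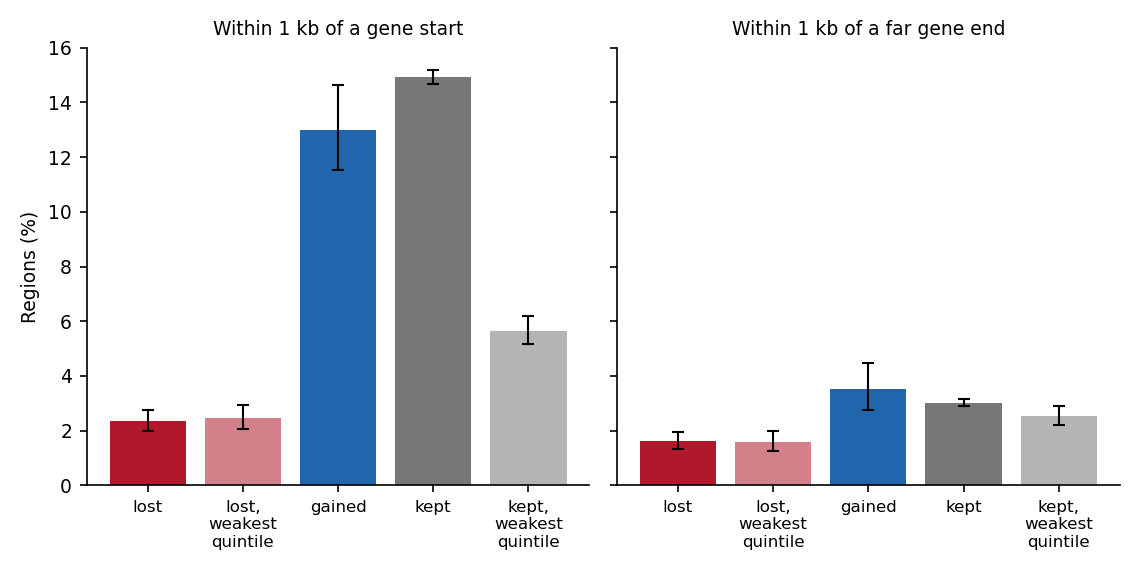
Share of regions (y axis, %) within 1 kb of a coding gene's start (left) and far end (right), for lost, gained and kept regions and for the weakest signal quintile of lost and kept regions (pale bars). Only genes with a known start are used. Error bars are Wilson 95% intervals; lost regions have the lowest share at starts, 2.35%, and kept ones the highest, 14.9%.

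Loss grew with distance from the nearest end of a coding gene and fell with gene density. A region deep inside a long gene counts as far from an end here. Among regions with both untreated peaks, 1.71% was lost within 1 kb of a coding gene's end, 5.82% at 1 to 10 kb, 7.14% at 10 to 50 kb and 9.78% beyond 500 kb. Within the weakest quintile these were 18.1%, 22.5%, 27.2% and 30.6%, and the share was level from 50 kb on (31.5% at 50 to 100 kb). For density, each coding gene was counted in the megabase bin of its midpoint, so a bin with none may still lie inside a long gene. In bins with no gene midpoint 9.48% of regions was lost, against 3.43% in bins with 21 or more. In the weakest quintile these were 30.5% and 17.0%. Within the weakest quintile both ends of each range thus differed in the same direction as over all regions; stronger quintiles and matched widths were not examined. Coding gene bodies overlapped 46.1% of lost, 60.5% of gained and 53.7% of kept regions.

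By chromosome the lost share ran from 3.45% on 19, 4.46% on 22 and 4.56% on 17, to 8.37% on 13 and 9.16% on 4. In the weakest quintile it ran from 17.1% on 19 to 31.7% on 10. Chromosomes 19, 17 and 22 are rich in genes and 4 and 13 are poor in them.

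**Figure D4:**
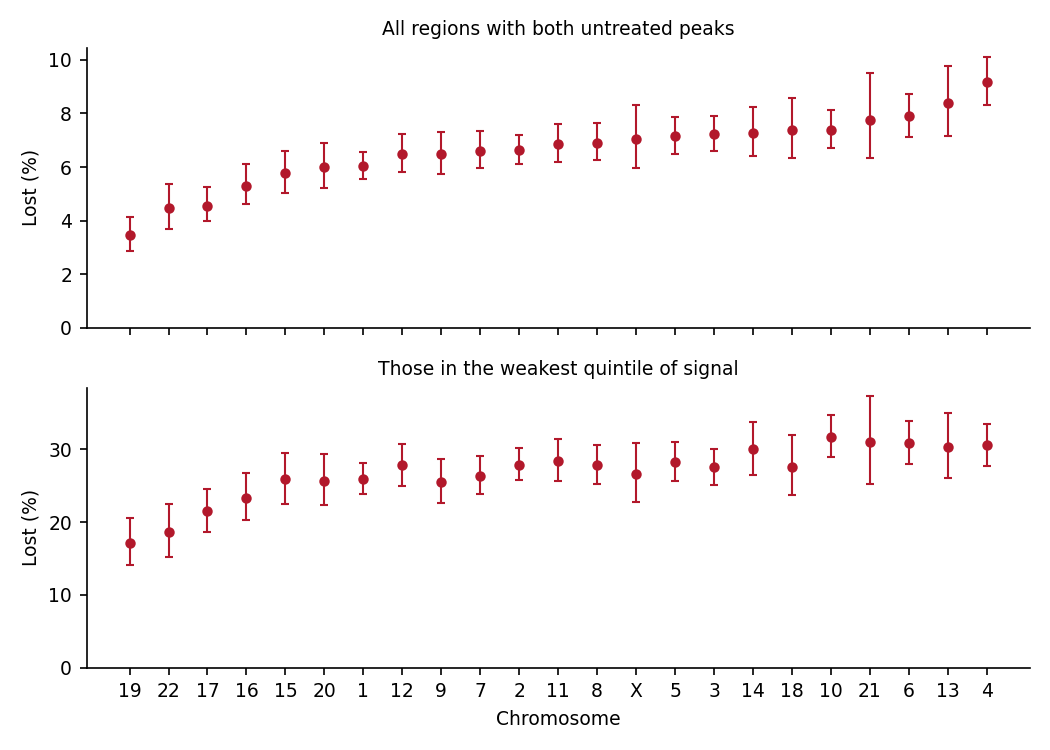
Share of regions with both untreated peaks that was lost (y axis, %), by chromosome in order of the share over all regions; upper panel all regions, lower panel the weakest signal quintile. Points are shares and bars Wilson 95% intervals; chromosome 19 is lowest in both panels, at 3.45% and 17.1%.

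Most lost regions stood alone. Taken in genome order among regions with both untreated peaks, the next region after a lost one was lost too in 8.09% of 6267 cases, against 6.40% after a kept one. With lists of equal length these were 4.82% and 3.42%. Where the next region was in the weakest quintile, it was lost in 31.0% of cases after a lost region and 26.5% after a kept one (intervals 28.6 to 33.6 and 25.8 to 27.2). Of the runs, 5293 held 1 region, 430 held 2, 37 held 3 and 1 held 4. The nearest H2O2 peak lay within 500 bp of 14.2% of lost regions, within 1 kb of 22.1%, and beyond 10 kb from 35.2%. The densest megabases were chr17 31 to 32 Mb with NF1 and SUZ12 (11 of 57 regions lost), chr11 44 to 45 Mb with EXT2, ALX4 and CD82 (10 of 66), chr6 37 to 38 Mb with PIM1 and MDGA1 (10 of 89), chr10 71 to 72 Mb with CDH23 and PSAP (10 of 96) and chr3 100 to 101 Mb with ABI3BP and TFG (9 of 49).

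The 25 lost regions of at least 1000 bp differed from the narrow ones in position, a group singled out after its values were seen. Of these, 9 (36.0%, interval 20.2 to 55.5) lay within 1 kb of a coding gene's far end, against 86 of 5891 narrower lost regions (1.46%) and 5.50% of the 21831 kept regions of that width. At starts the order was the reverse, with 2 of the 25 wide lost regions against 37.6% of wide kept ones. Kept regions of that width in the weakest and next quintile had far-end shares of 8.24% and 6.59%. Wide regions lost in siOrc6 only were at far ends in 8 of 69 cases (11.6%), those lost in siGl3 only in 10 of 45 (22.2%) and wide gained regions in 3 of 42 (7.14%). At 750 bp or more the lost share was 11.4% (12 of 105), so it rests on the few widest regions. With peaks joined up to 500 bp apart it was 14.9% (7 of 47), with the weakest 25% of each list left out 20.0% (9 of 45), and with a −log10 q of at least 3 it was 21.2% (11 of 52).

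The genes with these far-end regions include CDKN1A, the p53-induced inhibitor of cyclin-dependent kinases, where the region (chr6:36687870-36688919) had signals of 1103 in siOrc6 and 654 in siGl3 and its centre lay 1063 bp past the gene. At HNRNPF, an RNA-binding protein gene, the signals were 1026 in siOrc6 and 447 in siGl3, with the centre 966 bp past the end. The others were PDLIM7 and RPL18 (above), NUMA1, a spindle protein gene (502 in siOrc6 and 366 in siGl3), UBALD2 (293 and 234), and 3 regions within 1 kb of the far ends of a pair of converging genes: EZR and SYTL3 (506 in siOrc6 and 314 in siGl3), CFAP410 and PFKL (371 and 318), and CACFD1 and SLC2A6 (636 and 509). In all 9 the siOrc6 percentile was the higher, and of the 12 gene ends involved the region's centre lay beyond the gene at 10. Of the 25 wide lost regions, 19 had a higher percentile in siOrc6, and 7, none of them at a far end, overlapped a region in the authors' list of sites higher in siOrc6.

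**Figure D5:**
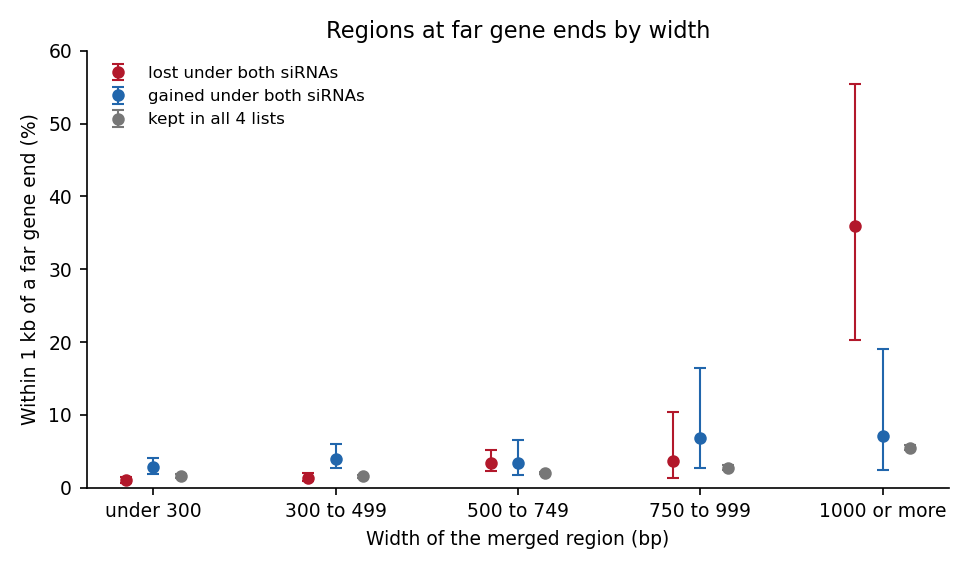
Share of regions within 1 kb of a coding gene's far end (y axis, %) by width of the merged region in bp (x axis), for lost, gained and kept regions, with Wilson 95% intervals. Shares stay under 10% except for lost regions of 1000 bp or more, at 36.0% (9 of 25).

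Coding genes with a lost region in the body numbered 2170 of 19974, or of 15664 with any region of both untreated lists, and 521 had 2 or more. RBFOX1, a neuronal splicing regulator gene, had the most, with 10 of its 88 regions lost and 63 kept. ASIC2, an acid-sensing channel gene, lost 7 of 53, SPOCK1, a proteoglycan gene, 7 of 28, KAZN, a gene of a cell junction protein, 7 of 52, PRKG1, a cyclic GMP-dependent kinase gene, 7 of 27, and CTNNA2, a neuronal catenin gene, 7 of 26. TENM2, a synaptic adhesion gene, lost 6 of 39, SNX29 6 of 31, the synaptic scaffold gene DLG2 6 of 34 and RANBP2, a nucleoporin gene, 5 of 64; RANBP2 is 1 of 20 genes with 5, taken for the most bases in lost regions. Most of these are among the longest genes, and the lost share grew with gene length, at 2.07% of regions in genes under 20 kb, 4.32% from 20 to 100 kb, 7.13% from 100 to 500 kb and 9.43% above.

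Among the 1529 genes with at least 8 regions, 629 lost none. The largest shares were at COG5, a subunit of a Golgi tethering complex, with 4 of 8, and UNC5D, a netrin receptor gene, with 4 of 9, followed by 3 of 8 at ABI3BP, FSTL5, MDGA1, POFUT3 and PPFIBP2 and 4 of 11 at SLC24A3. These are small counts picked from the top of 1529 genes.

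The gene groups below count regions in a gene or within 5 kb, and are read against 5.47% lost over all coding genes. That share is not matched for gene length. Of p53 targets, 8 of 74 regions (10.8%) were lost, at 6 of 24 genes, against 15.8% of all coding genes with a region. CDKN1A had 2, the far-end region and one centred 0.86 kb into the gene (424 in siOrc6 and 353 in siGl3). DDB2, a DNA damage recognition gene, had 2, with signals of 382 and 291 in siOrc6, against 545 and 481 in siGl3. The second of these lay outside DDB2, within the neighbouring gene ACP2. Single regions were lost at the nuclease gene AEN (523 in siOrc6 and 371 in siGl3), the growth arrest gene GADD45A (458 and 269), the BH3-only gene PMAIP1 (224 and 320) and SPATA18 (300 and 318). A peak listed after H2O2 lay 105 bp from the GADD45A region and 217 bp from the PMAIP1 region. At AEN and SPATA18 the nearest was 1782 bp and 2272 bp away. The p53 targets kept 62 of their 74 regions in all 4 lists.

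None of 91 regions at NRF2 and antioxidant genes was lost, where a count of 0 allows up to 3.30%, and 87 were kept. AP-1 and immediate-early genes lost 2 of 99 (2.02%), at FOSL2, a Fos-family gene, and DUSP1, a stress-induced MAP kinase phosphatase gene. Both lists hold mostly short genes, with median lengths of 16.7 kb (NRF2) and 5.27 kb (AP-1). All genes under 20 kb lost 2.07% in their bodies, so neither low share is read as particular to its list. The FOSL2 region had signals of 532 in siOrc6 and 204 in siGl3. H2O2 peaks were listed 300 bp from the FOSL2 region and 345 bp from the DUSP1 region. YAP and TEAD pathway genes lost 8 of 191 (4.19%), among them 1 at YAP1 itself and 2 at PTPN14, a YAP inhibitor gene. The nearest H2O2 peak was 114 bp from the YAP1 region, and 4897 bp and 5087 bp from those at PTPN14. TGF-beta and matrix genes lost 10 of 221 (4.52%), 3 of them at LTBP1, a latent TGF-beta binding protein gene, and 2 at the signal transducer gene SMAD3.

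Repair and replication genes had lost shares under or near the 5.47% of all coding genes, on counts of 2 or 3 regions each. Base excision repair genes lost 2 of 68 (2.94%), both at HMGB1, a chromatin protein gene, with signals of 352 and 877 in siOrc6 against 296 and 558 in siGl3. Mismatch repair genes lost 2 of 51 (3.92%), 1 of them in MLH3, a gene of the nuclease complex that acts after mismatch recognition. Origin licensing and firing genes lost 3 of 57 (5.26%), at ORC5, a subunit of the origin recognition complex (559 in siOrc6 and 389 in siGl3), GINS3, a helicase component (255 and 312), and TICRR, a firing factor (409 and 339). The region counted for TICRR lay outside it, within the neighbouring gene KIF7. ISWI remodelling genes lost 6 of 47 (12.8%), with 2 each at CECR2 and RSF1 and 1 each at BAZ2B and RBBP7; both CECR2 regions lay within 1 kb of each other in the gene, and may not count as separate.

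Long synaptic genes lost 84 of 724 regions (11.6%), with a lost region at 31 of 36 genes, and genes at common fragile sites lost 43 of 506 (8.50%) at 18 of 24; their median lengths were 1161 kb and 1282 kb, and all genes above 500 kb lost 9.43% in their bodies. Interferon and inflammation genes lost 4 of 56 (7.14%). At IL6, an inflammatory cytokine gene, 2 were lost, with signals of 424 and 440 in siOrc6 against 215 and 215 in siGl3, and at IFI44L the promoter region had 960 in siOrc6 and 337 in siGl3. At each of these 3 regions the siOrc6 value was the higher. OAS2, a viral RNA sensor gene, lost 1 region (289 and 204). Bone-lineage genes, of the lineage osteosarcoma arises in, had regions at 20 of 21 genes and lost 5 of 69 (7.25%), among them 1 each at RUNX2, ALPL, BMP6 and DMP1. Marker genes of other cell types lost 7 of 98 (7.14%), 1 of them the single region at the leukocyte gene PTPRC. Counts of this size leave wide intervals, and no list was tested.

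Few lost regions were in the authors' lists of regions that differ between siOrc6 and siGl3. Of the 6268, 192 (3.06%, interval 2.66 to 3.52) overlapped a region higher in untreated siOrc6, against 6.49% of all regions with both untreated peaks and 4.55% of kept regions in the weakest quintile. The list of regions lower in untreated siOrc6 held 53 (0.846%), against 2.76% of all such regions and 6.16% of kept ones in the weakest quintile. That share was 0.436% with peaks joined up to 500 bp apart and 0.465% with no H2O2 peak within 500 bp. Of regions lost in siOrc6 only, 7.89% were in the lower list, and of those lost in siGl3 only, 15.9% were in the higher list. The rule bears on the untreated shares too, since a region that differs between siRNAs can keep its peak under 1 of them. Such a region falls in those classes, so the low shares of lost regions are a description only. The deposited siOrc6 against siGl3 lists with H2O2 held none of the lost regions, against 0.909% (higher) and 0.549% (lower) of all. The rule itself bears on that count, so nothing is read from it. Of the 192 listed as higher, 173 had the higher percentile in siOrc6, with medians of 38.5 in siOrc6 and 11.5 in siGl3; of the 53 listed as lower, 49 had the lower one, with medians of 7.32 and 36.2.

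The highest-ranked lost region in the higher list was chr14:61788925-61791340 in SNAPC1, a subunit of the small nuclear RNA activating complex, 2416 bp wide with signals of 2676 in siOrc6 and 754 in siGl3. HUNK, a kinase gene, had a listed region at its far end (1097 in siOrc6 and 615 in siGl3), and PMAIP1 had one in the lower list.

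Of 1558 miRNA hairpins in the RefSeq table, 2 lay in lost regions, against 196 in kept and 4 in gained regions. Their mature sequences are shown with the seed, bases 2 to 8, in capitals, and they share no seed. MIR3918 lies in the EZR and SYTL3 far-end region on chromosome 6 (minus strand), with signals of 506 in siOrc6 and 314 in siGl3 and an H2O2 peak 187 bp away. MIR591 lies in SLC25A13, a mitochondrial carrier gene, on chromosome 7 (minus strand), in a region with signals of 872 in siOrc6 and 648 in siGl3 and no H2O2 peak within 16373 bp.
hsa-miR-3918: aCAGGGCCgcagauggagacu
hsa-miR-591: aGACCAUGgguucucauugu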

How the data were processed

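ATAC-seq was measured in 8 U2OS libraries, 2 per condition. The submitters' processing notes name Genrich, edgeR, Bowtie2, deepTools, SAMtools, Picard and bcl2fastq 2.20, and build hg38; their roles, thresholds, duplicate handling and any transposase shift are not given in the sources used here. The 4 deposited peak lists give a display score (not used), a peak signal, a −log10 p-value and a −log10 q-value from the authors' caller, and the lists of siOrc6 against siGl3 differences hold no values, positions only. Peaks were merged where they overlapped or touched; percentiles rank signal within a list. Regions on other sequences were left out. Overlap was at least 1 bp. Genes, promoters and miRNAs came from RefSeq tables of GRCh38.p14, matching hg38. Intervals are Wilson 95% intervals, cover counting error only, and treat neighbouring regions as independent. No test across libraries was possible, and none was made. Merging and overlap were checked on simulated peaks and against bedtools 2.31.1. Python 3.11.15, numpy 2.4.6 and pandas 2.3.3 were used.

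Members and gene lists were chosen with earlier results of these data known. Named were the 8 strongest and 3 widest lost regions, the 10 genes with most and the 8 with the largest share lost, genes with strong lost regions at an end, up to 4 genes per list, and the 5 densest megabases; gene-end names were cut to a few. MRTFB, CALD1, SNAPC1's rank, the wide regions, GADD45A with the other p53 targets beyond 4, HUNK and the miRNAs were chosen after their values were seen. A few named items are not reported here.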

Additional observations from a re-analysis of the deposited data

Results flagged for a closer look

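On sequences outside chromosomes 1 to 22 and X, which the report does not use, 5 of 127 regions with both untreated peaks had no H2O2 peak under either siRNA (3.94%). They are listed here because they lie in data outside the comparisons.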

How the results depend on the processing

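No paired analysis was possible because each peak list joins both libraries of its condition, and for the same reason no library could be left out. The depth of the libraries is unknown, so a missing peak may reflect little signal or few reads. A −log10 q of at least 2 could change almost nothing, since nearly all listed peaks pass it, and changed no value. Of the other 66 alternatives, 28 stayed within the main value's interval (within 1.5 times for counts) and 38 moved beyond it; the cause was not tested. The −log10 q of at least 3, equal list lengths, summits, other widths and other promoter coverage were chosen after seeing the data.

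With the weakest 25% of each list left out, the median lower percentile was 32.6, the median width 413 bp, the gene-end share 3.25%, the siOrc6 higher share 3.66%, the siOrc6 lower share 0.589% and the far-end share of wide regions 20.0%. With peaks joined up to 500 bp apart these were 299.5 bp for width, 3.05% for gene ends, 2.16% for higher, 0.436% for lower and 14.9% for far ends. Requiring no H2O2 peak within 500 bp gave 3.09% for gene ends, 2.31% for higher and 0.465% for lower. With untreated peaks only from the stronger 50% of each list by signal, 12 regions were lost, with a median lower percentile of 55.9, a median width of 607 bp, 16.7% at gene ends, 0.0% in the higher and 0.0% in the lower list, 0.0% with a lost neighbour, and an AP-1 match in 50.0% of 2 promoters. A −log10 q of at least 3 gave a median percentile of 13.9 and a width of 301 bp. With lists of equal length 2947 regions were lost, with a median percentile of 20.6, a width of 343 bp, 3.29% at gene ends, 2.31% in the higher list and 4.82% with a lost neighbour. A 3 kb window gave 9.60% at gene ends, and judging by summit 3.05%. The far-end share was 11.4% at 750 bp or wider, and AP-1 matches were in 11.8% of the 17 promoters wholly inside lost regions. Kept regions in the same signal quintile had 8.38% at gene ends, 4.84% in the higher and 5.84% in the lower list, and in the same width quintile 4.50% at gene ends. Under every setting run that gave over 12 lost regions, their gene-end share stayed under that of all kept regions, which was 23.7% with the 3 kb window and 15.2% by summit.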
